A study of Mus musculus with 17 samples.

Results

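The 9 interferon response genes described here, Stat2, Irf9, Irf7, Isg15, Ifit1, Ifit2, Ifit3, Bst2 and Ifih1, were chosen by name from the 26131 genes of the deposited count matrix, which held all 9. Their RNA was counted per nucleus in posterior brain tissue of 17 female mice, aged 2.3 months, that carried a human transferrin receptor (TfR) knock-in on both alleles. The knock-in was present in every group, saline included. The saline group had 4 animals. Malat1 ASO, a free antisense oligonucleotide against the nuclear RNA Malat1, was given to 4 animals at 2 mg per kg. The same oligonucleotide was given as the conjugate anti-TfR:Malat1 to 6 animals and as the conjugate OTV:Malat1, on a TfR-binding carrier, to 3 animals, both at 50 mg per kg. All were dosed intravenously 4 times over 24 days, and brains were taken 72 hours after the last dose. The comparisons ask whether RNA of the interferon response genes differed between treated and saline animals and between the carriers, and in which cells.

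Interferons are secreted proteins that put cells into an antiviral state. Type I interferons bind the receptor chains Ifnar1 and Ifnar2, whose kinases Jak1 and Tyk2 activate Stat2, among others. Stat2 joins Irf9, and their complex enters the nucleus and binds interferon-stimulated response elements in the promoters of its targets, among them Isg15, Bst2, the Ifit genes and, in a positive loop, Irf7, Stat2 and Irf9 themselves. Foreign or misplaced nucleic acids are known to start this chain through sensors such as the Toll-like receptors and the double-stranded RNA sensor that Ifih1 encodes, and microglia, macrophages along vessels and brain endothelium are known responders.

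The promoters were searched for the core letters of the element. In the 250 bases before each RefSeq start site (GRCm38.p6), these letters, GAAANNGAAA, searched on both strands with overlapping matches counted, were found in 5 of the 11 windows of the 9 genes, each of another gene (Irf9 and Ifit2 have 2 windows each). They were found in 978 of all 32851 promoter windows of the same length (2.98%). At least 2 matches were found in 4 of the 11 windows and in 59 of all windows (0.180%). The windows of Irf7, Irf9, Ifit2 and Ifih1 did not hold these letters, which says nothing else about those genes. The stretches with matches are printed 5′ to 3′ on the strand of the gene, with the matches in capitals, because they are what the 5 genes share in sequence. The matches of Isg15 and Bst2 run on the gene's own strand and overlap in a tandem array, and those of Stat2, Ifit3 and Ifit1 read as TTTCNNTTTC because they lie on the opposite strand. Places in order are chr4:156200855-156200916 (minus strand) for Isg15, chr8:71537567-71537622 (minus strand) for Bst2, chr10:128270256-128270305 (plus strand) for Stat2, chr19:34583353-34583436 (plus strand) for Ifit3 and chr19:34640765-34640833 (plus strand) for Ifit1.
Isg15: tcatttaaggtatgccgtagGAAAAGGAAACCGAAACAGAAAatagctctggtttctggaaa
Bst2: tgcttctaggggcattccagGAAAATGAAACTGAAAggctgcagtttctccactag
Stat2: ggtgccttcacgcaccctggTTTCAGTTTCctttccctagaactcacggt
Ifit3: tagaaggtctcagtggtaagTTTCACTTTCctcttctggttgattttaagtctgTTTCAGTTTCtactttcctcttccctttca
Ifit1: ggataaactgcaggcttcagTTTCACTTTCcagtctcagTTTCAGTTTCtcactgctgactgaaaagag

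In the GENCODE annotation of GRCm38, Ifit2 (chr19:34550694-34576419), Ifit3 (chr19:34583531-34588731) and Ifit1 (chr19:34640871-34650009) all lie on the plus strand of chromosome 19. Ifit3 has a near-identical copy, Ifit3b, so reads could be split between them and the level of Ifit3 is uncertain. Irf9 (chr14:55603571-55610030) overlaps Rnf31 by 123 bases on the same strand and Irf7 (chr7:141262706-141266481) overlaps Phrf1 by 45 bases on the opposite strand. Stat2 (chr10:128270559-128292849), Isg15 (chr4:156199424-156200818), Bst2 (chr8:71534255-71537456) and Ifih1 (chr2:62595798-62646255) overlap no other annotated gene.

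The matrix held 284074 nuclei with 1099241149 UMIs in all (unique molecular identifiers, each taken as 1 RNA molecule), or 55393588 to 79866411 UMIs per animal. The authors' labels gave 193268 neurons, 75282 oligodendrocytes, 8444 microglia, 4972 astrocytes, 1226 vascular cells, 657 perivascular macrophages and 225 nuclei called Glia. Levels are counts per 1000000 UMIs of the same label in the same animal (CPM). A single UMI was worth 1.18 to 3.05 CPM in microglia, 5.85 to 23.1 CPM in vascular cells and 12.6 to 47.1 CPM in perivascular macrophages, so a level in the last 2 labels can rest on very few molecules. Any pair of animals shared 50 to 110 barcodes, at most 0.623% of the smaller library. Targeted Malat1 made up 10.2% ± 1.75 of oligodendrocyte UMIs in saline and 1.67% ± 0.205 in OTV:Malat1 (SD, n = 4 and 3). That loss alone moves CPM of other genes, and the median gene of at least 5 CPM stood 0.18 higher on the log2 scale in OTV:Malat1 than in saline in oligodendrocytes and 0.11 higher in astrocytes, against 0.05 and 0.01 with Malat1 left out of the total.

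The labels were checked against marker lists. Microglial markers such as P2ry12 and Cx3cr1 summed to 8687 CPM in microglia against 91.6 CPM in neurons. Perivascular macrophage markers such as Mrc1 summed to 8504 CPM in that label, beside 3100 CPM of microglial markers, many of which macrophages share. Vascular cells held endothelial (2864 CPM), mural (3099 CPM) and fibroblast-like markers (2864 CPM) together, so this label is a mixture. Of blood cell markers, all 5 lymphocyte markers in the matrix and 3 of 4 monocyte and neutrophil markers were at 0 in perivascular macrophages, where the latter list summed to 95.6 CPM. In vascular cells all 4 monocyte and neutrophil markers and 1 of 5 lymphocyte markers were at 0, and the lymphocyte list summed to 23.9 CPM. Neuronal marker RNA stood in the other labels at 6.04% to 16.1% of its level in neurons, and its part in the levels below was not tested. Oligodendrocyte precursors had no label of their own. Their markers summed to 315 CPM in vascular cells, 246 CPM in Glia, 84.9 CPM in astrocytes and 78.5 CPM in oligodendrocytes. They summed to 56.3 CPM in neurons, 43.8 CPM in perivascular macrophages and 13.7 CPM in microglia, against 58.8 CPM in all nuclei.

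Of the 42709 UMIs of the 9 genes, 84.9% came from neurons, which held most of the RNA. In CPM the labels ranked differently. Glia is left out of this order and of those below, since its 225 nuclei held 480616 UMIs in all and 1 UMI was worth up to 668 CPM in an animal. The summed level was 222 ± 61.5 CPM in vascular cells, 164 ± 68.6 in perivascular macrophages, 95.7 ± 15.0 in microglia, 62.2 ± 16.1 in astrocytes, 41.0 ± 4.06 in oligodendrocytes and 37.5 ± 2.31 in neurons (SD, n = 17 animals each). In mean level over these 6 labels, 6 of the 9 genes were highest in vascular cells and 3, Stat2, Irf9 and Bst2, in perivascular macrophages. Levels across labels are given as a description, without a test, since the labels share the same animals and libraries. A label's level does not tell fewer nuclei with the RNA from less RNA per nucleus.

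**Figure D1:**
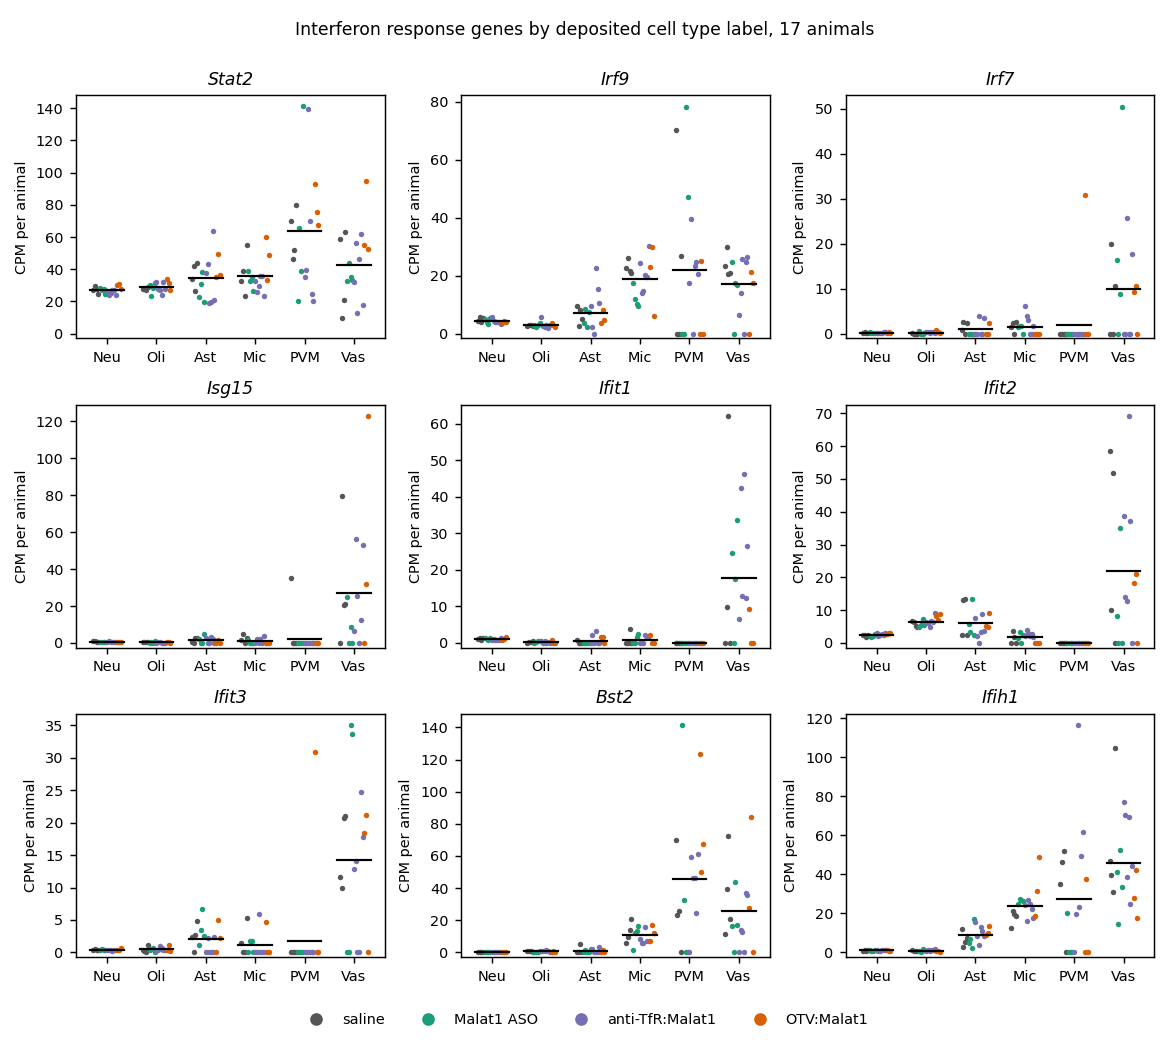
CPM of each gene in each animal (points, coloured by group, 17 animals) for neurons (Neu), oligodendrocytes (Oli), astrocytes (Ast), microglia (Mic), perivascular macrophages (PVM) and vascular cells (Vas), with the mean as a bar; each panel has its own linear axis. Isg15, Ifit1 and Ifit3 stand out in vascular cells, Ifih1 and Irf9 step up from neurons to microglia, and Stat2 is present in every label.

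Among the transcription factors, Stat2, the signal carrier of the complex, was present in all 6 labels. Its level was 27.0 ± 2.10 CPM in neurons, 28.7 ± 2.93 in oligodendrocytes, 34.3 ± 12.2 in astrocytes, 35.8 ± 10.4 in microglia, 42.8 ± 21.9 in vascular cells and 63.5 ± 36.1 in perivascular macrophages. No neighbouring labels in this order differed beyond their SDs. Irf9, the DNA-binding partner of Stat2, had its highest means in the same labels as Bst2. It stood at 21.9 ± 24.8 CPM in perivascular macrophages, 18.9 ± 7.05 in microglia and 17.1 ± 9.76 in vascular cells, against 7.26 ± 5.56 in astrocytes, 4.33 ± 0.79 in neurons and 2.90 ± 0.81 in oligodendrocytes. Neurons were exceeded by microglia in 17 of 17 animals, by vascular cells in 14 and by perivascular macrophages in 10, and the SDs of vascular cells and astrocytes met. Neurons exceeded oligodendrocytes in 17 of 17, though the SDs of those last labels met. Irf7, the factor that amplifies interferon production, was the rarest of the 9 with 246 UMIs in all. It reached 9.95 ± 13.4 CPM in vascular cells, where 9 of 17 animals had any, and 0.19 ± 0.06 in neurons.

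Isg15, a ubiquitin-like protein that is attached to other proteins after interferon, was at 27.2 ± 33.7 CPM in vascular cells and between 0.35 and 2.06 CPM in the other 5 labels. Its vascular UMIs came from 12 of 17 animals. Ifit1, which binds foreign RNA ends, was at 17.9 ± 18.8 CPM in vascular cells and 1.09 ± 0.27 in neurons. Ifit3, its binding partner, was at 14.2 ± 11.5 CPM in vascular cells and 0.40 ± 0.11 in neurons. Both had vascular UMIs in 12 of 17 animals. Ifit2, which belongs to the same family, had another distribution. After vascular cells (22.0 ± 22.4 CPM) came oligodendrocytes at 6.48 ± 1.37 CPM and astrocytes at 5.96 ± 4.27 CPM, the former higher in 10 of 17 animals. Neurons were at 2.55 ± 0.41 CPM, below oligodendrocytes in 17 of 17 animals. Ifit1 and Ifit2 had no UMI among the 753454 of perivascular macrophages, which allows up to 3.98 CPM of each. Here and in microglia below, a count of 0 UMIs was taken to allow up to 3.

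Bst2, the membrane protein tetherin that holds budding virus on the cell, was at 45.5 ± 40.7 CPM in perivascular macrophages, 25.5 ± 24.6 in vascular cells and 10.5 ± 5.18 in microglia. It was below 1 CPM in the other 3 labels, at 0.96 ± 1.57 in astrocytes, 0.62 ± 0.34 in oligodendrocytes and 0.26 ± 0.11 in neurons. Microglia lay above astrocytes, the next label down, in 17 of 17 animals and beyond the SDs. Ifih1, the sensor of long double-stranded RNA, was graded across labels. It was at 45.7 ± 23.3 CPM in vascular cells, 27.1 ± 31.6 in perivascular macrophages, 24.0 ± 8.03 in microglia, 8.86 ± 4.41 in astrocytes, 1.00 ± 0.20 in neurons and 0.96 ± 0.46 in oligodendrocytes. The steps from microglia to astrocytes and from astrocytes to neurons held in 17 of 17 animals and exceeded the SDs, whereas the steps among the 3 highest labels did not.

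Vascular cells were then split by which marker list had the most UMIs in each nucleus, a split made after the vascular levels had been seen, so it is given with counting error only. Endothelial markers led in 185 nuclei, mural markers in 387 and fibroblast-like markers in 620, and no single list led in 34. Isg15 was concentrated in the endothelial-led nuclei, with 31 UMIs there (104 CPM, 95% exact Poisson interval 70.5 to 147), 2 in mural-led nuclei (4.98 CPM, 0.60 to 18.0) and 3 in fibroblast-led nuclei (3.40 CPM, 0.70 to 9.93). Bst2 was similar, with 32 UMIs in endothelial-led nuclei (107 CPM, 73.3 to 151), 3 in mural-led nuclei (7.46 CPM, 1.54 to 21.8) and 8 in fibroblast-led nuclei (9.06 CPM, 3.91 to 17.9). Irf7 had 10 UMIs in endothelial-led nuclei (33.5 CPM, 16.1 to 61.6) against 2 and 3 in the other kinds. Ifih1 was found in all 3, at 90.4 CPM (59.6 to 131) in endothelial-led, 47.3 CPM (28.5 to 73.8) in mural-led and 35.1 CPM (23.9 to 49.9) in fibroblast-led nuclei.

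Ifit2 ran the other way. It had 29 UMIs in fibroblast-led nuclei (32.9 CPM, 22.0 to 47.2) and 1 UMI in endothelial-led nuclei (3.35 CPM, 0.08 to 18.6). Its neighbour Ifit1 was at 33.5 CPM (16.1 to 61.6) in endothelial-led, 16.997 CPM (9.51 to 28.0) in fibroblast-led and 2.49 CPM (0.06 to 13.9) in mural-led nuclei. The endothelial-led Isg15 UMIs came from 11 of 17 animals and from every group, whose totals differed. Pooled, there were 8 in saline (81.0 CPM, 3 of 4 animals) and 8 with OTV:Malat1 (171 CPM, 2 of 3 animals). With anti-TfR:Malat1 there were 14 (128 CPM, 5 of 6 animals), and with the free ASO 1 (22.8 CPM, 1 of 4 animals). UMIs of 1 animal or 1 nucleus are not independent molecules of the group, and the intervals leave that out.

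**Figure D2:**
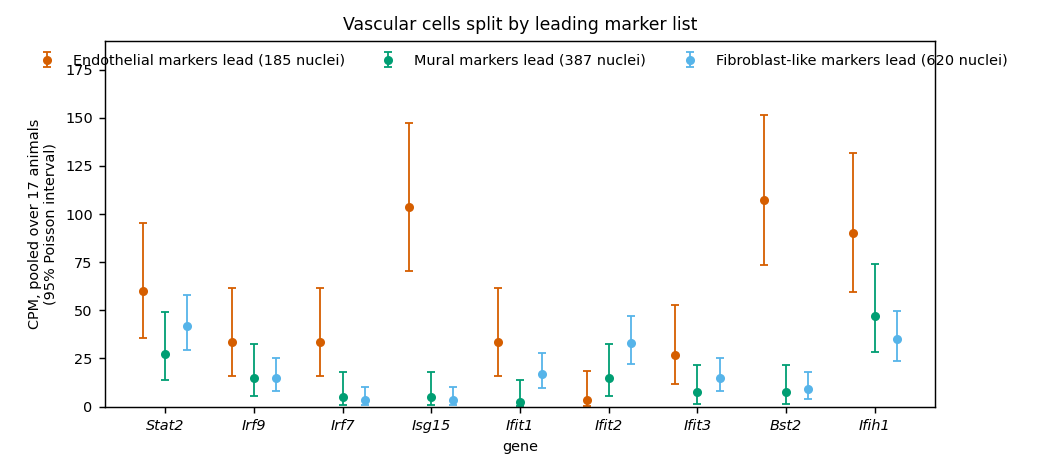
CPM of each gene in vascular nuclei grouped by the leading marker list (185 endothelial, 387 mural and 620 fibroblast-like nuclei, pooled over 17 animals), with 95% exact Poisson intervals of the counts. Isg15 and Bst2 are near 100 CPM in endothelial-led nuclei and under 10 CPM in the others, and Ifit2 is highest in fibroblast-led nuclei.

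Nuclei with UMIs of at least 3 of the 9 genes numbered 14 of 1226 vascular cells (1.14%, 95% exact binomial interval 0.626 to 1.91, median 1100 UMIs per nucleus), 6 of 8444 microglia (0.0711%, 0.0261 to 0.155, median 1004 UMIs) and 66 of 193268 neurons (0.0341%, 0.0264 to 0.0434, median 4614 UMIs). No perivascular macrophage of 657 did, which allows up to 0.560% (median 960 UMIs). These shares were not thinned to a common depth. Of the 66 neurons, 29 were nuclei the authors called doublets (43.9%, against 22.4% of all neurons), and of the 14 vascular nuclei 5 were (35.7%, against 5.71% of vascular cells). The median depth of these 14 was 2129.5 UMIs. The part of doublets in these shares was not tested. The 14 vascular nuclei came from all groups, with 6 in saline, 2 with OTV:Malat1, 3 with anti-TfR:Malat1 and 3 with the free ASO. The 66 neurons were 29 in saline (0.0673%), 11 with OTV:Malat1 (0.0310%), 14 with anti-TfR:Malat1 (0.02004%) and 12 with the free ASO (0.0268%), and 16 of the 29 came from saline replicate 2.

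For the 7 genes with at least 500 UMIs, the genes with the most similar levels over the 20 deposited clusters were taken from 14658 genes, by Pearson r, as a description. Isg15 was most like Flt1, the endothelial growth factor receptor (r = 0.88), Gm14964 (0.88) and March6 (0.87). Irf9 was most like the class I gene H2-T24 (0.94), Rin3 (0.93) and Slc37a2 (0.93). Ifih1 was most like Gm26740 (0.94), Tnfaip8 (0.93) and Trim12a (0.93), and Bst2 most like Orai3 (0.94), Msl1 (0.91) and Atxn7 (0.90). Ifit1 followed Zfp267 (0.94), Triqk (0.90) and Gm9934 (0.85), while Ifit2 followed Rmdn2 (0.93), Limd1 (0.92) and Vsig10 (0.91), with no gene in common between these neighbours' lists. Stat2, present in every cluster, reached 0.72 at most, with Anxa5 and Igf1r, then Nab1 (0.71). The clusters come from the same libraries and differ in depth and cell number.

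Across treatments, summed over all nuclei, the summed level of the interferon response genes overlapped between all groups. It ran from 38.2 to 43.2 CPM in saline animals, from 39.8 to 44.1 with OTV:Malat1, from 35.2 to 40.5 with anti-TfR:Malat1 and from 36.7 to 40.2 with the free ASO. Stat2 alone gave 70.4% of these UMIs, so the sum says little about the other 8 genes. Without Stat2 the sum ran from 10.3 to 13.8 CPM in saline, from 10.7 to 12.7 with OTV:Malat1, from 10.5 to 13.2 with anti-TfR:Malat1 and from 9.68 to 12.5 with the free ASO. All 9 genes were tested with edgeR's quasi-likelihood test among 21375 genes, with Benjamini-Hochberg adjustment over all of them. None of the 9 passed an adjusted p of 0.05 in any of the 4 comparisons, where 0 genes of 21375 were called (0.0% in each), and none of the 9 had an unadjusted p under 0.05. DESeq2 also called 0, with 0 under an unadjusted 0.05. All 3 comparisons with saline use the same saline animals. Malat1, the target itself, was not called in all nuclei either (OTV:Malat1 against saline, log2 change -0.84, edgeR unadjusted p = 0.00046). Nor was it called in neurons (-0.64), perivascular macrophages (-0.82) or vascular cells (-0.43). In all nuclei 0.604% to 1.61% of all genes had an unadjusted edgeR p under 0.05. A count of 0 called genes therefore does not show that the 9 genes were unchanged.

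Stat2, the best counted with 30069 UMIs, was at 27.3, 29.4, 27.9 and 25.7 CPM in the saline animals and at 31.2, 31.5 and 27.8 CPM in OTV:Malat1. It was at 28.5, 27.0, 27.8 and 25.0 CPM in Malat1 ASO and at 24.3 to 28.2 CPM (median 26.3) in anti-TfR:Malat1. The groups overlapped. Its log2 change against saline was 0.06 with OTV:Malat1 (SE 0.07, 95% interval -0.10 to 0.22), -0.05 with anti-TfR:Malat1 (-0.18 to 0.09) and -0.02 with the free ASO (-0.16 to 0.13). In folds, the OTV:Malat1 interval ran from 0.933 to 1.16.

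Isg15 was at 0.872, 1.08, 0.479 and 0.716 CPM in saline animals. It was at 0.561, 0.629 and 0.686 CPM with OTV:Malat1, at 0.434 to 0.889 CPM (median 0.575) with anti-TfR:Malat1 and at 0.623, 0.538, 0.430 and 0.627 CPM with the free ASO. No treated animal lay above the saline range. Its log2 changes against saline were -0.41 (95% interval -0.99 to 0.18) with OTV:Malat1, -0.30 (-0.78 to 0.19) with anti-TfR:Malat1 and -0.51 (-1.05 to 0.04) with the free ASO. Irf9 changed by -0.35 (-0.73 to 0.02), Irf7 by -0.14 (-0.85 to 0.57), Ifit1 by -0.05 (-0.55 to 0.45), Ifit2 by 0.24 (-0.07 to 0.56), Ifit3 by 0.08 (-0.46 to 0.61), Bst2 by 0.00 (-0.58 to 0.58) and Ifih1 by -0.12 (-0.52 to 0.28) in OTV:Malat1 against saline, none past the threshold. The median log2 change of the 9 genes against saline was -0.05 with OTV:Malat1, -0.13 with anti-TfR:Malat1 and -0.08 with the free ASO, where the medians of all genes tested were -0.0007, -0.0026 and -0.0072. Between the carriers it was 0.06, where that of all genes was 0.0079.

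**Figure D3:**
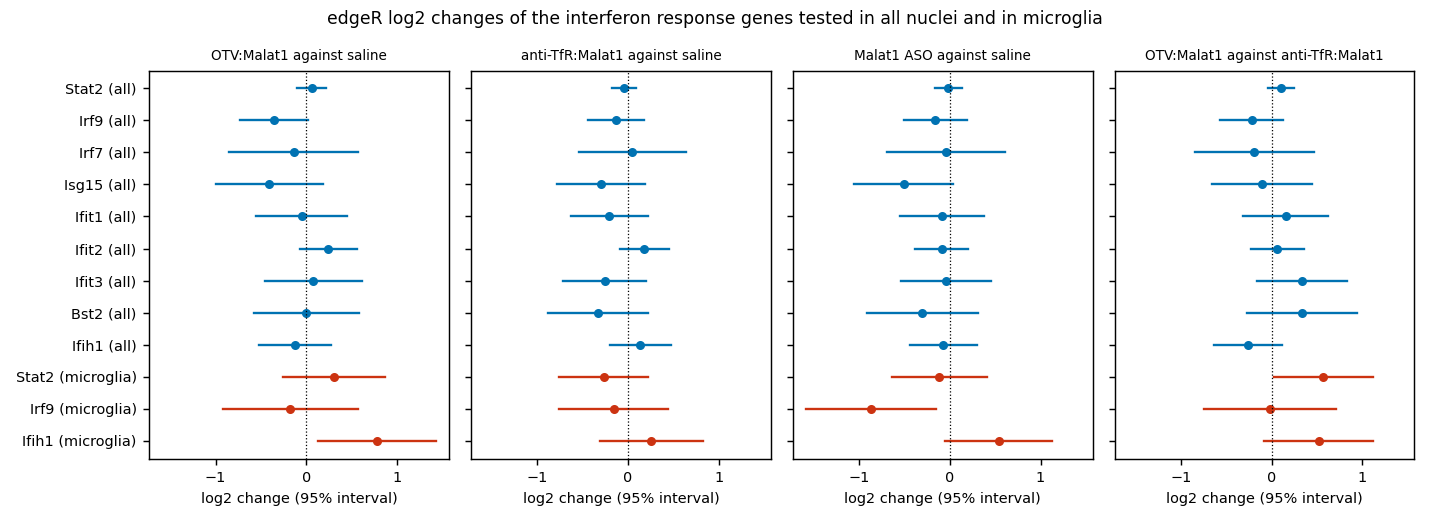
Log2 changes (points) with 95% intervals from edgeR for the 9 genes in all nuclei and the 3 genes tested in microglia, 1 panel per comparison, with a dotted line at 0. Most intervals cross 0, and those of Ifih1 (OTV:Malat1 against saline), Irf9 (Malat1 ASO against saline) and Stat2 (OTV:Malat1 against anti-TfR:Malat1) in microglia, which do not, had adjusted p of 0.973, 1.00 and 0.979.

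In microglia, 3 of the 9 genes, Stat2, Irf9 and Ifih1, had enough UMIs to be tested among 9104 genes. None was called in any comparison, against 0.011% of genes called in OTV:Malat1 against saline, which was Malat1 alone (log2 change -0.71, adjusted p = 0.046), and 0.0% in the other comparisons. At an unadjusted p under 0.05, edgeR found 1 of the 3 in OTV:Malat1 against saline, 1 in Malat1 ASO against saline, 0 in anti-TfR:Malat1 against saline and 1 between the carriers, and DESeq2 found 1, 1, 0 and 0 in the same order and called 0. Of all 9104 genes, edgeR had 370, 206, 266 and 331 under 0.05 in that order (4.06%, 2.26%, 2.92% and 3.64%). By edgeR the genes were Ifih1, Irf9 and Stat2 in turn, and they are described with their values because they lie closest to the threshold.

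Ifih1 was at 12.7, 21.2, 19.6 and 18.4 CPM in saline microglia and at 18.5, 31.6 and 48.8 CPM in OTV:Malat1. It was at 24.6, 27.4, 26.9 and 26.2 CPM in Malat1 ASO and at 15.9 to 26.7 CPM (median 23.3) in anti-TfR:Malat1. In OTV:Malat1, 2 of 3 animals lay above every saline animal, and replicate 3 was well above all others of the study. The log2 change in OTV:Malat1 against saline was 0.78 (SE 0.32, 95% interval 0.13 to 1.42, edgeR adjusted p = 0.973, or 0.021 unadjusted), and it was 0.45 without OTV:Malat1 replicate 3 and 1.05 without replicate 1. In nuclei of at least 1000 UMIs alone it was 0.21. Within the authors' batches 2, 3 and 4 the difference of log2(CPM + 1) was -0.19, 0.66 and 1.36, and batch 1 held no OTV:Malat1 animal. In Malat1 ASO all 4 animals lay above the 4 saline animals, by 0.54 on the log2 scale (SE 0.29, edgeR adjusted p = 1.00, or 0.072 unadjusted). Within batches 1 to 4 that difference was 0.90, 0.35, 0.43 and 0.49.

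Irf9 was at 22.6, 25.9, 21.6 and 21.0 CPM in saline microglia and at 17.4, 11.97, 10.1 and 9.54 CPM in Malat1 ASO, with no overlap. It was at 13.9 to 30.4 CPM (median 19.7) in anti-TfR:Malat1 and at 23.1, 29.8 and 6.10 CPM in OTV:Malat1, whose replicate 3 was below and replicate 2 above every saline animal. The log2 change in Malat1 ASO against saline was -0.87 (SE 0.35, 95% interval -1.58 to -0.16, edgeR adjusted p = 1.00, or 0.019 unadjusted). Within batches 1 to 4 the difference of log2(CPM + 1) was -0.36, -1.05, -1.03 and -1.06. Irf9 and Ifih1 were thus the 2 of 9 genes whose Malat1 ASO and saline animals did not overlap in microglia, and they lay in opposite directions. Over all genes, the animals of those 2 groups did not overlap for 1.98% of the 9104 genes tested and for 1.63% of the 20885 with a UMI in microglia.

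Stat2 was at 32.5, 38.9, 23.6 and 55.2 CPM in saline microglia, at 60.0, 33.5 and 48.8 CPM with OTV:Malat1, at 23.2 to 35.9 CPM (median 31.2) with anti-TfR:Malat1 and at 39.1, 32.5, 35.3 and 26.2 CPM with the free ASO. The OTV:Malat1 animals overlapped both other groups. Between the carriers, OTV:Malat1 minus anti-TfR:Malat1, the log2 change was 0.57 (SE 0.27, 95% interval 0.025 to 1.12, edgeR adjusted p = 0.979, or 0.041 unadjusted). It was 0.33 without OTV:Malat1 replicate 1, and 1.18, 0.03 and 0.71 as differences of log2(CPM + 1) within batches 2, 3 and 4. Against saline the OTV:Malat1 change was 0.30 (SE 0.27), and leaving out 1 animal gave 0.07 without OTV:Malat1 replicate 1, 0.55 without OTV:Malat1 replicate 2, 0.16 without saline replicate 3 and 0.48 without saline replicate 4, with 0.61, 0.49 and -0.17 within batches 2, 3 and 4.

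**Figure D4:**
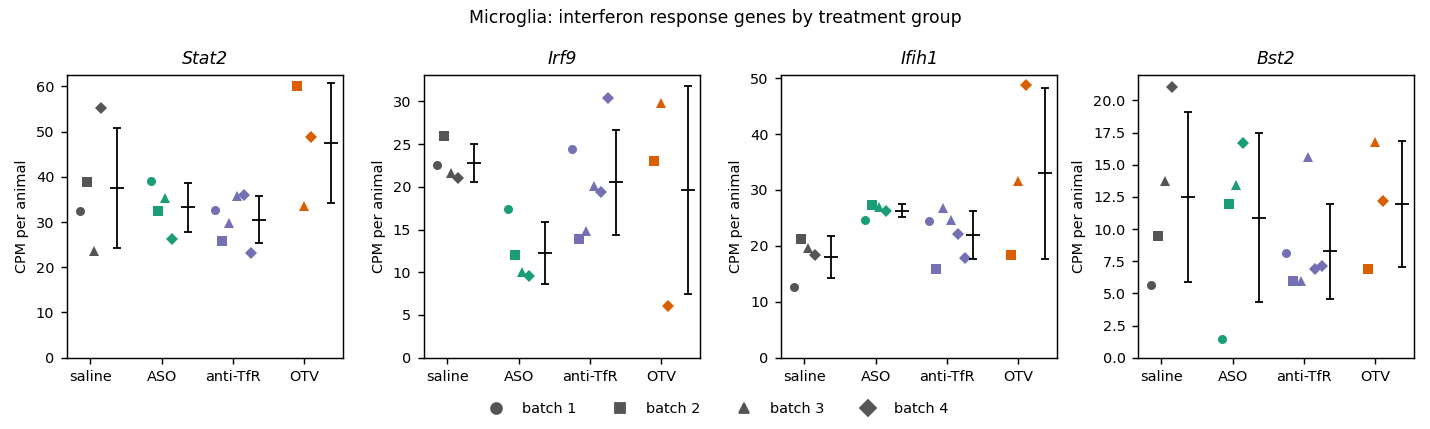
CPM of Stat2, Irf9, Ifih1 and Bst2 in microglia, per animal (points, shape by the authors' batch), with group mean and SD (bars) for 4 saline, 4 Malat1 ASO, 6 anti-TfR:Malat1 and 3 OTV:Malat1 animals on linear axes from 0. The saline and Malat1 ASO animals do not overlap for Irf9 and Ifih1, and the spread of OTV:Malat1 is wide for Irf9 (6.10 to 29.8) and Ifih1 (18.5 to 48.8).

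The other 6 genes were too rare in microglia for the filter. Bst2 had 27 UMIs in saline, 16 with OTV:Malat1, 25 with anti-TfR:Malat1 and 23 with the free ASO, with overlapping animals. Isg15 had 6 UMIs in saline, 4 with anti-TfR:Malat1, 1 with the free ASO and 0 with OTV:Malat1, where 0 of 1298623 UMIs allows up to 2.31 CPM, close to the 2.45 CPM of saline. Ifit2 was likewise at 0 in OTV:Malat1 and was found in all 6 anti-TfR:Malat1 animals (8 UMIs, 1.79 to 3.98 CPM), so that these groups did not overlap. The same held for 1.48% of the genes with a UMI in microglia. The 0 with OTV:Malat1 allows up to 2.31 CPM of Ifit2 by that rule, near the 2.61 CPM pooled over the anti-TfR:Malat1 animals. So rough a limit does not decide at this depth whether the levels differed. Irf7 had 4 UMIs in saline, 7 with anti-TfR:Malat1, 3 with the free ASO and 0 with OTV:Malat1, and Ifit1 and Ifit3 had between 1 and 3 UMIs in each group. With no filter all 9 were fitted and 0 were called by edgeR. The lowest unadjusted p values among the rare genes were 0.037 for Isg15 (OTV:Malat1 against saline), 0.0375 for Irf7 and 0.027 for Ifit2 (both OTV:Malat1 against anti-TfR:Malat1), each with OTV:Malat1 the lower. These 3 fits rest on 0 UMIs in 3 animals.

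Summed over the 9 genes, microglia ranged from 77.7 to 126.2 CPM in saline animals, from 111.6 to 116.0 with OTV:Malat1, from 71.6 to 102.7 with anti-TfR:Malat1 and from 83.4 to 90.7 with the free ASO. The OTV:Malat1 animals lay above all anti-TfR:Malat1 animals and inside the saline range. Of single genes tested in microglia, 1.74% did not overlap between the carriers, but that share is no reference rate for a sum of 9 genes. Stat2 gave 321 of the 859 UMIs in this sum. Without it the carriers overlapped, at 55.4 to 78.1 CPM with OTV:Malat1 and 45.7 to 67.003 CPM with anti-TfR:Malat1. With it, within batches 2, 3 and 4 OTV:Malat1 exceeded anti-TfR:Malat1 by 0.68, 0.22 and 0.39 on the log2(CPM + 1) scale, and its difference from saline was 0.12, 0.40 and -0.12. Perivascular macrophages averaged 158 ± 82.0 CPM in saline, 200.5 ± 72.3 with OTV:Malat1, 160.3 ± 81.4 with anti-TfR:Malat1 and 146 ± 45.3 with the free ASO. Vascular cells averaged 255 ± 36.9 CPM in saline, 235 ± 83.4 with OTV:Malat1, 222 ± 42.4 with anti-TfR:Malat1 and 179.96 ± 85.0 with the free ASO (SD, n = 4, 3, 6 and 4). In both labels the groups overlapped.

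**Figure D5:**
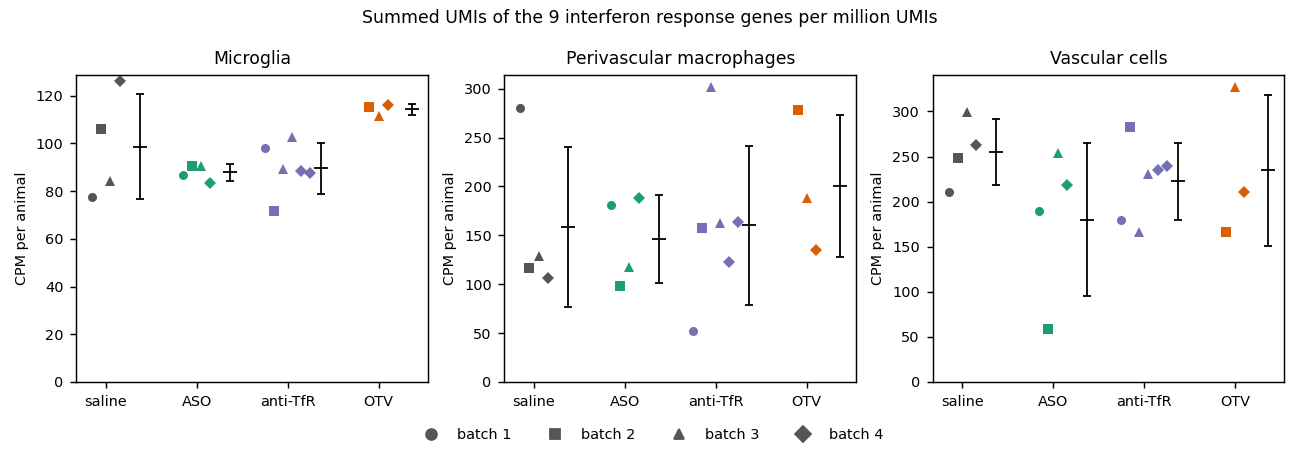
Summed CPM of the 9 genes per animal (points, shape by the authors' batch) in microglia, perivascular macrophages and vascular cells, with group mean and SD (bars) and linear axes from 0. In microglia the 3 OTV:Malat1 animals sit between 111.6 and 116.0 CPM, within the saline range of 77.7 to 126.2 CPM, and the 6 anti-TfR:Malat1 animals between 71.6 and 102.7 CPM.

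In perivascular macrophages and vascular cells none of the 9 genes passed the filter on low counts, so there was no test to call them, where 0.0% of 1418 and of 3312 genes were called in each comparison. With no filter, 7 of the 9 were fitted in perivascular macrophages and 9 in vascular cells, and 0 were called by edgeR, with 0 under an unadjusted 0.05. Bst2 in perivascular macrophages was at 70.1, 23.3, 25.9 and 0 CPM in saline, 124, 50.3 and 67.5 with OTV:Malat1, 0 to 61.4 (median 46.5) with anti-TfR:Malat1 and 141, 32.8, 0 and 0 with the free ASO. Isg15 in vascular cells was at 0, 79.3, 20.7 and 21.0 CPM in saline, 0, 31.7 and 123 with OTV:Malat1, 0 to 56.4 (median 19.02) with anti-TfR:Malat1 and 24.7, 0, 8.74 and 0 with the free ASO. Both genes overlapped between all groups. Among endothelial-led nuclei, the summed level of the 9 genes was 474 ± 22.3 CPM in saline, 732 ± 250.1 with OTV:Malat1, 476 ± 146 with anti-TfR:Malat1 and 304 ± 273 with the free ASO (SD), from 3 to 20 nuclei per animal. The saline animals were at 467, 445, 494 and 489 CPM, from 6, 12, 13 and 16 UMIs of the 9 genes. The OTV:Malat1 animals were at 448, 828 and 920.3 CPM, from 8, 15 and 10 UMIs. With so few UMIs the small SD of saline is not read as a small spread between animals. Of the OTV:Malat1 animals, 2 of 3 were above every animal of the other groups. In mural-led nuclei the summed level was 212 ± 69.5 CPM in saline, 106 ± 78.6 with OTV:Malat1 (60.7 without replicate 2, from 8 UMIs in all), 129 ± 115 with anti-TfR:Malat1 and 88.2 ± 32.2 with the free ASO. Every free ASO animal there (47.6 to 117 CPM, 8 UMIs in all) lay below every saline animal (123 to 277 CPM, 20 UMIs in all). The nearest of them, at 117 and 123 CPM, rest on 3 and 7 UMIs. No share of comparable sums is set beside this, so it is not read as a result. In fibroblast-led nuclei the summed level was 166 ± 66.0 CPM in saline, 130.3 ± 86.4 with OTV:Malat1, 179 ± 48.6 with anti-TfR:Malat1 and 171 ± 67.5 with the free ASO. Without OTV:Malat1 replicate 3 its mean in fibroblast-led nuclei was 178 CPM, above that of saline. The split was chosen after seeing the data, and no test was made.

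In neurons all 9 genes were tested among 20906 genes, and in every comparison 0 of the 9 and 0.0% of the genes were called by edgeR, with 0 of the 9 under an unadjusted 0.05. DESeq2 also called 0, with 0 under an unadjusted 0.05. Ifit2 was at 2.47, 2.45, 1.95 and 2.48 CPM in saline neurons and at 2.63, 3.18 and 3.17 CPM in OTV:Malat1, with no overlap, with Malat1 in the total or without it. Those groups did not overlap for 3.79% of the genes tested and 3.67% of those with a UMI in neurons. It was at 2.17, 1.94, 2.08 and 2.73 CPM in Malat1 ASO and at 2.27 to 3.20 CPM (median 2.56) in anti-TfR:Malat1. Its log2 change in OTV:Malat1 against saline was 0.29 (SE 0.15, 95% interval -0.03 to 0.61, edgeR adjusted p = 1.00, or 0.073 unadjusted). Within batches 2, 3 and 4 the OTV:Malat1 animals (2.63, 3.18 and 3.17 CPM) were above the saline animals (2.45, 1.95 and 2.48 CPM). Stat2 in neurons was higher in every OTV:Malat1 animal (27.5 to 31.0 CPM) than in every anti-TfR:Malat1 animal (23.9 to 27.4 CPM), which was no longer so with Malat1 left out of the total. With Malat1 in it, the carriers did not overlap for 2.53% of the genes tested in neurons and 2.31% of those with a UMI.

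In oligodendrocytes 3 genes were tested among 14419, and in astrocytes only Stat2 among 8547. None was called by edgeR, and 0 of them had an unadjusted p under 0.05. DESeq2 called 0 as well, with 0 under an unadjusted 0.05. The share of genes called in oligodendrocytes was 0.0208% in OTV:Malat1 against saline, 0.00694% between the carriers and 0.0% in the other comparisons. In astrocytes it was 0.0117% in both OTV:Malat1 comparisons and 0.0% in the others. Ifit2 in oligodendrocytes was at 6.85, 6.39, 5.05 and 4.81 CPM in saline and at 8.19, 6.93 and 8.98 CPM in OTV:Malat1. These animals did not overlap, as for 11.8% of the 14419 genes tested and 8.42% of those with a UMI, but did once Malat1 was left out of the total, and the log2 change was 0.25 (SE 0.22, 95% interval -0.21 to 0.71). Stat2 changed by -0.03 (-0.30 to 0.25) in oligodendrocytes and by 0.04 (-0.61 to 0.70) in astrocytes in the same comparison.

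Irf7 in oligodendrocytes was too rare for the filter. It had 1 UMI in the 4 saline animals together, 7 with OTV:Malat1, 10 with anti-TfR:Malat1 and 5 with the free ASO. The saline animals were at 0.105, 0, 0 and 0 CPM, the OTV:Malat1 animals at 0.697, 0.257 and 0.243 CPM and the anti-TfR:Malat1 animals at 0.129 to 0.431 CPM (median 0.296), so that neither conjugate overlapped saline, with Malat1 in the total or without it. Among the 24259 genes with a UMI in oligodendrocytes, 8.42% did not overlap between OTV:Malat1 and saline and 0.511% between anti-TfR:Malat1 and saline. Malat1 ASO animals were at 0.513, 0, 0 and 0.206 CPM. The pooled ratio to saline was 11.2 in OTV:Malat1 (95% exact interval 1.44 to 505) and 7.58 in anti-TfR:Malat1 (1.08 to 329), and it was 5.70 in Malat1 ASO (0.638 to 269.8), an interval that includes 1. The intervals cover counting error only, and all 3 ratios rest on the same single saline UMI. In the edgeR fit with no filter Irf7 had an unadjusted p of 0.015 in OTV:Malat1 and 0.025 in anti-TfR:Malat1 and adjusted p of 0.944 and 1.00. The 2 comparisons share the saline animals, and reads from the 45 bases of Irf7 that overlap Phrf1 could belong to either gene unless strand was used, which the sources do not say. Over all 28 combinations of label and comparison, groups did not overlap in 8 of 252 cases for the 9 genes (3.17%) and in 2.05% of cases for all genes with a UMI.

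The wider pathway was read from a list of 100 other genes. Of 10 interferon ligands 1 was in the matrix, and of the receptors and kinases 9 of 9, the transcription factors 7 of 7, the sensors and adaptors 15 of 16, the interferon-induced effectors 42 of 44, the brakes on signalling 5 of 5 and the antigen presentation genes 9 of 9. The receptor chain Ifnar2 was at 19.2 ± 1.54 CPM in neurons, 209.7 ± 19.4 in microglia, 148 ± 47.6 in vascular cells and 283 ± 89.4 in perivascular macrophages. Ifnar1 was at 19.0 ± 1.36 CPM in neurons, 59.0 ± 10.9 in microglia and 133 ± 65.3 in perivascular macrophages. Jak1 was at 70.8 ± 3.64 CPM in neurons and 255 ± 33.1 in microglia, and Tyk2 at 21.6 ± 1.24 and 51.3 ± 17.2 (SD, n = 17). Of the 42 effectors, 26 were highest in perivascular macrophages and 11 in vascular cells. Glia aside, these labels held the fewest UMIs, so a few UMIs of a rare gene make a high level there. No share over all genes is set beside this count, so it is not read as a trait of the effectors.

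Of these 100 genes, 78 were tested in all nuclei, 72 in neurons, 47 in microglia, 40 in oligodendrocytes, 20 in astrocytes, 14 in perivascular macrophages and 12 in vascular cells. None was called higher or lower in any label or comparison by edgeR or by DESeq2. At an unadjusted p under 0.05 there were 0 to 5 of them in each label and comparison by edgeR and 0 to 6 by DESeq2. In edgeR they were at most 5 of 78 in all nuclei (6.41%, anti-TfR:Malat1 against saline, where 1.21% of all genes had such a p) and 4 of 72 in neurons in the same comparison (5.56%, against 1.18%). The 4 in neurons were Sp100, Usp18, Slfn5 and Parp14, with log2 changes of -0.51, -0.82, -0.82 and -0.57 and an adjusted p of 1.00 each. In all nuclei, most of whose RNA is neuronal, there were 11 such cases of 7 genes over the 4 comparisons, 0 higher and 11 lower, with an adjusted p of 1.00 each. The shares were 3.85% with OTV:Malat1 and with the free ASO against saline, where 1.11% and 0.604% of all genes had such a p, and 0 between the carriers. Over all genes, those under 0.05 were higher and lower in 103 and 134 cases with OTV:Malat1, 82 and 176 with anti-TfR:Malat1 and 68 and 61 with the free ASO. The cases share 4 saline animals, and Sp100, Usp18, Slfn5 and Parp14 each recur in a pair of comparisons. Without saline replicate 4 just 3 of the 11 stayed under 0.05 (and 1 of the 4 in neurons), and without saline replicate 2, whose summed level of the 9 genes was high, 8 did. The 11 cases stayed lower in every alternative run in all nuclei. Which pathway genes fell under 0.05 depended on the choice of data, and in most alternatives none of them was higher. Without OTV:Malat1 replicate 3, pathway genes under 0.05 in all nuclei were higher in 9 cases and lower in 11. With doublets left out they were higher in 4 and lower in 11. Without saline replicate 3 they were higher in 0 and lower in 22. In microglia the genes were Herc6 in OTV:Malat1 against saline (log2 change -0.49), Mavs, Jak1 and Dtx3l in anti-TfR:Malat1 against saline (-0.75, -0.27 and -0.60), Mavs, Ddx58 and Xaf1 in Malat1 ASO against saline (-0.69, -0.62 and -0.78) and Herc6 in OTV:Malat1 against anti-TfR:Malat1 (-0.45), each lower in the treated or the OTV:Malat1 animals, with adjusted p from 0.973 to 1.00. These are not 8 separate results, since the comparisons share animals and Mavs and Herc6 each appear in a pair of them. They made up 2.13%, 6.38%, 6.38% and 2.13% of the 47 genes in that order of comparisons, against 4.06%, 2.92%, 2.26% and 3.64% of all genes. In the other 5 labels such genes went both ways, higher in 5 cases and lower in 12, with adjusted p of at least 0.882. Among the higher were the transcription factor Irf1 in oligodendrocytes with OTV:Malat1 (0.97) and the free ASO (1.08) and the receptor chain Ifngr2 in astrocytes with OTV:Malat1 (1.09), each against saline. By comparison, genes under 0.05 were 5.00% to 10.0% of the 20 tested in astrocytes (2.16% to 4.07% of all genes). They were 0 to 5.00% of 40 in oligodendrocytes (1.03% to 2.94%) and 0 to 5.56% of 72 in neurons (0.627% to 2.12%). In perivascular macrophages they were 0 to 7.14% of 14 (3.24% to 5.15%), and in vascular cells 0 to 8.33% of 12 (2.42% to 5.13%).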

How the data were processed

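Single-nucleus RNA of 17 samples was analysed. The deposited integer UMI counts were made with Cell Ranger 6.0.1 and Seurat 4 on mm10, per the submitters' processing notes. Cell type labels, clusters, doublet calls and batch numbers are those the authors deposited, and the sources do not say what a batch marks. The deposited doublet scores and label prediction scores, each a fraction of 0 to 1 made by the authors, were not used. Of the other metadata columns, 8 were not used. All nuclei were kept, including 47758 that the authors called doublets. The 9 genes, the pathway lists and the marker lists were chosen with earlier results of these data known.

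For each animal UMIs were added up across all its nuclei and within each label, if it had at least 20 nuclei of that label. Genes were filtered by filterByExpr, scaled by TMM and fitted over all 17 animals with edgeR 4.0.16 (glmQLFit, glmQLFTest, R 4.3.3), and two-sided p-values were adjusted across every tested gene (Benjamini-Hochberg, threshold 0.05). The 3 treated groups were compared with saline, and the carriers with each other. Intervals come from the fit's residual spread. The fits were also run on simulated counts without batch effects, with changes put only into better counted genes, which says nothing about the rare genes. The labels number the samples within a group without saying that each is a separate animal, so p-values measure the spread between these samples. Same-numbered samples had a median correlation of 0.05 (over 0.1 in 10 of 21 pairs), and differently numbered ones -0.04 (31 of 85). Numbers were not taken as pairs. In saline, Malat1 ASO and anti-TfR:Malat1 replicates 1 to 3 the number is also the batch. Samples of the same batch deviated together more often (median correlation 0.42, over 0.1 in 22 of 27 pairs) than those of different batches (-0.10, 19 of 79). The reported fit has no batch term, so its p-values and intervals leave out what samples of a batch share. With batch as a block 0 of the 9 genes were called. Named were the 9 genes, Malat1, Ifnar1, Ifnar2, Jak1 and Tyk2 (another gene of the rule is not reported here), called pathway genes (there were none), and the 3 most similar genes of each gene with at least 500 UMIs among genes of at least 2000 UMIs; pathway genes under an unadjusted 0.05, other pathway and marker genes, and Irf7 in oligodendrocytes were singled out after their values were seen. Alternatives were DESeq2 1.42.0, RLE factors, no filter on low counts, fits of just the compared groups, blocks by number or batch, no doublets, other choices of nuclei, Malat1 left out and each animal left out. Tables and figures used pandas 2.3.3, numpy 2.4.6, scipy 1.17.1 and matplotlib 3.10.9 in Python 3.11.15. Depth was 55393588 to 79866411 UMIs per animal, and intervals of single counts cover counting error only.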

Additional observations from a re-analysis of the deposited data

Results flagged for a closer look

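A single animal stood apart from the rest of its group in 10 of 96 groups of 4 or 6 animals examined. The rule is meant to flag about 1 in 20 independent groups by chance. These groups share UMIs, since all nuclei include the neurons and the sums include the single genes. Whether 10 exceeds chance was therefore not tested. Irf9 in anti-TfR:Malat1 replicate 1 was at 6.07 CPM in all nuclei (others 3.63 to 4.21) and at 5.63 CPM in oligodendrocytes (others 2.02 to 2.84). In the same animal Bst2 was low in all nuclei, at 0.225 CPM (others 0.413 to 0.463). Irf7 in neurons was at 0.261 CPM in Malat1 ASO replicate 1 (others 0.155 to 0.170). Ifit2 in neurons was at 1.95 CPM in saline replicate 3 (others 2.45 to 2.48). Ifih1 in all nuclei was at 0.953 CPM in Malat1 ASO replicate 2 (others 1.33 to 1.40).

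The summed level of the 9 genes stood apart in saline replicate 2, at 43.2 CPM in all nuclei (others 38.2 to 38.9) and 42.2 CPM in neurons (others 36.8 to 37.1), and in Malat1 ASO replicate 1, at 39.1 CPM in neurons (others 35.8 to 36.3). In perivascular macrophages it was 280.5 CPM in saline replicate 1 (others 107 to 129).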

How the results depend on the processing

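The number of the 9 genes called was 0 in each of the 20 combinations of label and comparison in which at least 1 of them was tested, and in each of the 580 such counts recomputed under the alternatives. In 8 other combinations (perivascular macrophages and vascular cells) and 208 other recomputed counts none of the 9 was tested, so their count of 0 was fixed beforehand. Over all 3068 tests of the 9 genes the lowest adjusted p was 0.702. The summed levels per label stayed within 1 SD under every alternative run for them. Of 2824 log2 changes of single genes recomputed, 2796 stayed within 1 SE and 28 moved by more, 0 became called and 123 changed sign, in 48 of 100 combinations of gene, label and comparison, 7 times where the change had been over 0.2 in size. With the sample number as a replicate block, 0 of the 9 genes were called in each comparison, as in the fit without it. Over all genes, that block moved the count of called genes from 3 to 1 in oligodendrocytes and from 0 to 1 in perivascular macrophages and in vascular cells (OTV:Malat1 against saline), and from 0 to 3 in vascular cells between the carriers. The fit with the deposited clusters most frequent for a label was not run in all nuclei, where no fit by clusters applies, nor in perivascular macrophages or vascular cells, which are most frequent in no cluster. Fits with at least 50 nuclei per animal or with nuclei of at least 1000 UMIs could not be run in perivascular macrophages, which had too few nuclei. Keeping nuclei in clusters that hold most of a label, and the split of vascular nuclei, were chosen after seeing the data. In microglia Ifih1 in OTV:Malat1 against saline ranged from 0.21 (nuclei of at least 1000 UMIs) to 1.05 over 29 alternatives and Irf9 in Malat1 ASO against saline from -1.10 to -0.77 over 28. Depth limits the rare genes in microglia, perivascular macrophages and vascular cells, where a few UMIs make up a level.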
